A study of Mus musculus with 36 samples.

Results

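The response of cortical pyramidal neurons to a forced swim was described here in wild-type (WT) mice 1 h after the swim. The comparison set 6 WT swim libraries against 3 WT naive libraries of the same cohort, chosen by the group and cohort given in the labels. These are 9 of the 36 libraries of the study, and the effect is swim over naive. All mice of both groups were Shank3(+/+) littermates from a cross with Shank3(ΔC/+) mice, carried HA-Rpl22(f/+);Camk2a-Cre(+/-), and were of strain C57BL6JL. Swim mice spent 5 min in water according to 1 label and 6 min according to another, at 25 °C, and then went back to the home cage for 1 h. Naive mice stayed in the home cage. Neither age nor sex is given in the sources used here, and 1 protocol field writes the tagged allele as HA-Rpl22(f/f). The study also held Shank3(ΔC/+) mice and mice taken 4 h after the swim, each with naive mice of their own.

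RiboTag puts an HA epitope on the ribosomal protein Rpl22 in cells that express Cre, so that ribosomes and the RNA bound to them can be pulled down from a whole tissue. Camk2a-driven Cre marks mainly excitatory forebrain neurons, and RNA of other cells can remain in such a pull-down. Neuronal activity and stress induce immediate early genes, among them the transcription factors Fos, Egr1 and Nr4a1 and the synaptic protein Arc, through calcium, cAMP and Ras-ERK signals that act on factors such as CREB and SRF. A forced swim also raises circulating glucocorticoids, which enter neurons and act through the glucocorticoid receptor, itself held by heat shock protein chaperones. In bulk RNA, fewer cells of a type and less RNA per cell cannot be told apart.

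Levels are given as CPM, in which each count is set against the size of its library after scaling by TMM, a method that balances gene ratios between libraries. Total counts ran from 883870 to 1352630 in naive and from 1075013 to 1916738 in swim libraries, beside a stated depth of 15 M reads. The labels do not tie libraries to named animals, so the p-values measure the spread between libraries, which may be technical in part. Libraries of a group were not duplicates, with a chi-square per degree of freedom from 2.65 to 21.9 over 18 pairs. The library kit keeps the strand of the RNA, but whether the counting used it is not given in the sources used here. Rows with an exon opposite an exon of another gene held 81.8% of the counts, and rows without any gene opposite held 14.4%. These shares shifted with the group, and neither overlapped between groups. Rows without any gene opposite held 8.61% to 9.82% in naive and 11.03% to 20.06% in swim libraries. The TMM factors did not overlap either, at 0.633 to 0.658 in naive and 0.743 to 1.17 in swim libraries. Rows with an opposite exon held 87.6% to 89.1% in naive and 74.7% to 86.1% in swim libraries. Values of genes with such an opposite exon are uncertain, because reads of either gene could have been counted on the row of the other. Among 999 pairs of an antisense and a coding row, the share of counts on the coding row, called the pair share here, was 10.4% to 10.7% in naive libraries. In swim libraries it was 11.2%, 16.6%, 14.5%, 15.9%, 12.7% and 13.1% for replicates 1 to 6. The groups did not overlap (exact two-sided permutation p = 0.0238, the smallest that 3 against 6 libraries allow; 0.0714 after Benjamini-Hochberg adjustment over 18 library measures). Markers of pyramidal neurons were present, and those of other cells were low or at 0 apart from single rows. Camk2a, the kinase subunit whose promoter drives the Cre, stood at 573 CPM in naive and 995 CPM in swim libraries, and the glutamate transporter gene Slc17a7 at 42.7 and 87.0 CPM. The 15 interneuron markers summed to 61.2 to 87.4 CPM in naive and 32.6 to 151 CPM in swim libraries, the highest in swim replicate 2. Without their largest row, Dlx1, which has an opposite exon, the ranges were 7.85 to 24.2 and 7.41 to 96.4 CPM. Astrocyte markers, 12 in the list, summed to 39.2 to 47.2 CPM in naive and 49.1 to 97.8 CPM in swim libraries, of which the single row of Slc1a2, with an opposite exon, was the largest. Without Slc1a2 the ranges were 20.7 to 26.7 and 22.7 to 34.5 CPM. Gad1, an interneuron gene, rose on 3 naive and 163 swim counts, and Mbp, a myelin gene, rose as well. The microglial sum, 1008 to 1092 and 403 to 865 CPM, was nearly all from Csf1r, also a row with an opposite exon. Without it the ranges were 7.85 to 15.0 and 9.03 to 19.3 CPM, and P2ry12 and Trem2 had no count in any of the 9 libraries. The 4 globin markers were at 0 in all 9.

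A broad set of genes differed 1 h after the swim. By edgeR's quasi-likelihood test over 11341 genes, 1917 rose (16.9%) and 1962 fell (17.3%) at a Benjamini-Hochberg adjusted p under 0.05. The median rise was 1.2 and the median fall -1.02 on the log2 scale, and 282 rises but only 11 falls were at least 4-fold. The direction of a call went with the class of its row. Among rows with no gene opposite, 1040 of 4822 rose and 268 fell, with a median log2 fold change of 0.57. Among rows with an opposite exon, 582 of 5241 rose and 1629 fell, with a median of -0.37. Antisense rows fell in 487 of 1034 cases and rose in 49. Over all genes tested the median was 0.24, with 16.9% rising and 17.3% falling. Over the 9484 protein-coding rows the median was 0.39, with 19.3% rising and 12.3% falling. List medians and list counts below are to be read against both. When the rows with no gene opposite were scaled among themselves, 365 of 4266 rose (8.56%) and 432 fell (10.1%), so the excess of rises in this class depended on the scaling. Adding the pair share to the model left 1417 rises and 1053 falls, of which 1175 and 961 were the same genes.

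**Figure D1:**
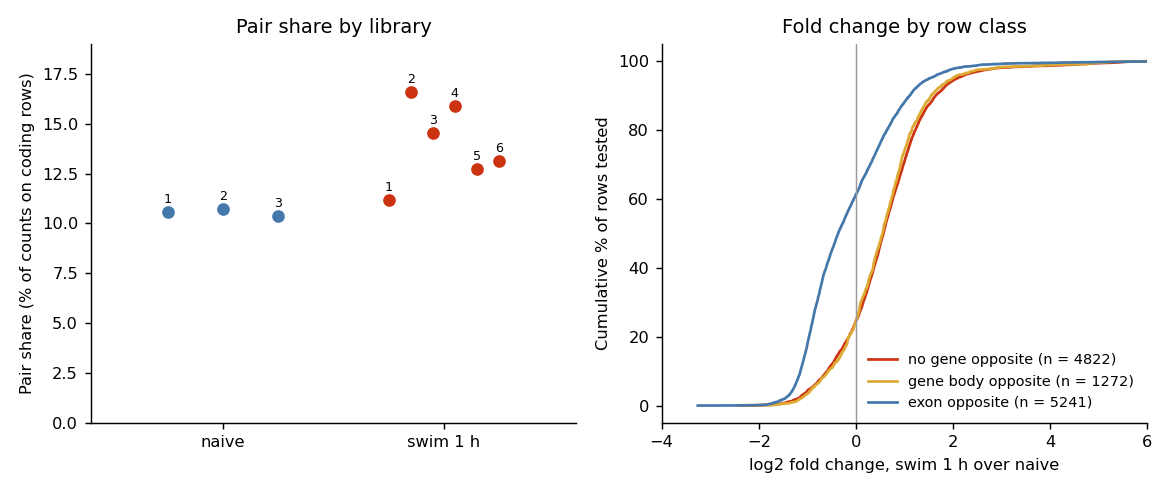
Left, the pair share (percent of counts of antisense and coding pairs that lay on coding rows) in each library, with replicate numbers, for 3 naive and 6 swim libraries. Right, the cumulative percent of rows tested against the log2 fold change of swim over naive for the 3 classes of row: the curve of rows with an exon opposite lies to the left, with a median of -0.37, and the other classes lie close together, with medians of 0.57 and 0.55.

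The calls leaned on 3 swim libraries. Without swim replicates 2, 3 and 4, which had the highest pair shares, 87 genes rose and 25 fell, all 112 among the calls made with every library. Without replicates 1, 5 and 6 instead, the same number of libraries gave 2572 rises and 2506 falls. Of the genes named here, 24 of 94 rising and 11 of 35 falling ones still passed without replicates 2, 3 and 4. Without replicates 1, 5 and 6 all 94 rising and 33 of the 35 falling ones did. In what follows a gene is said to have held if it also passed without replicates 2, 3 and 4. Of the 112 that held, 83 of the rising and all 25 of the falling genes had swim and naive libraries that did not overlap. Over all genes tested, 10.6% lay wholly above and 13.9% wholly below the naive libraries. Among all genes called with every library, 51.2% of the rises and 71.2% of the falls did not overlap. All 112 also passed with the pair share in the model. The 112 were chosen by passing in these same libraries, so these counts are not separate support for them. Replicates 2, 3 and 4 were picked after the values were seen.

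Rapid immediate early genes are switched on by activity without new protein synthesis, and several well known ones rose. Of 24 measured members 8 rose, 4 fell and 12 did not pass, with a median of 0.59. The 8 were Fos, Egr1, Nr4a1, Arc, Btg2, Egr2, Ier5 and Klf10, and none of them has a gene on the opposite strand. Scaled among rows with no gene opposite, 6 rose and 2 fell. With the pair share in the model 6 rose and 2 fell as well. The list median was then 0.08, below the 0.14 of all genes tested in that fit. Fos, a subunit of the AP-1 transcription factor (chr12:85473890-85477273, mm10, plus strand), stood at 5.19, 2.30 and 1.57 CPM in the naive libraries and at 18.2 to 44.4 CPM with a median of 23.7 in the swim libraries. Every swim library was above every naive one, and the means were 3.02 ± 1.91 (SD, n = 3) and 27.8 ± 10.1 CPM (n = 6). The log2 fold change of Fos was 3.26 (SE 0.57, edgeR adjusted p = 0.000423), and Fos held with 2.94. Nr4a1, an orphan nuclear receptor (chr15:101254269-101274795), had 0, 3.45 and 3.14 CPM in naive libraries and 10.1 to 31.1 CPM with a median of 22.0 after the swim. The groups again did not overlap, and the log2 fold change was 3.17 (SE 0.66, edgeR adjusted p = 0.00116), with 2.90 without the 3 libraries, where Nr4a1 also passed.

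Egr1, a zinc finger factor (chr18:34859823-34864984), went from 36.3, 43.7 and 34.5 CPM to 89.4 to 196 CPM with a median of 115. Its log2 fold change was 1.71 (SE 0.32, edgeR adjusted p = 0.00062), with no overlap, and it held. Arc, which regulates the removal of AMPA receptors from synapses (chr15:74669083-74672570), had 3.46, 10.4 and 0 CPM against 34.7 to 88.1 CPM with a median of 46.9. All swim libraries lay above all naive ones. The log2 fold change of Arc was 3.39 (SE 0.77, edgeR adjusted p = 0.00219), and without the 3 libraries it was 3.00 with an adjusted p of 0.0607. Without naive replicate 2, the naive library with the most Arc, it was 5.00. Egr2, a relative of Egr1, had no count in the naive libraries and 56 counts over the swim libraries, at 3.03 to 11.8 CPM. It was at least 4.49-fold higher, taken against a floor of 3 counts over the naive group, and did not hold. Egr4 fell, with a log2 fold change of -1.01 over 83 naive and 162 swim counts, and the nuclear factor genes Jund, Srf and Maff fell with -0.92, -0.85 and -1.35. Jund has an opposite exon. Npas4, an activity-bound neuronal factor, was under the filter on low counts with 1 naive and 17 swim counts, as was Ier2 with 1 and 25. Junb and Dusp1, both with opposite exons, did not pass, at 0.50 and -0.07.

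**Figure D2:**
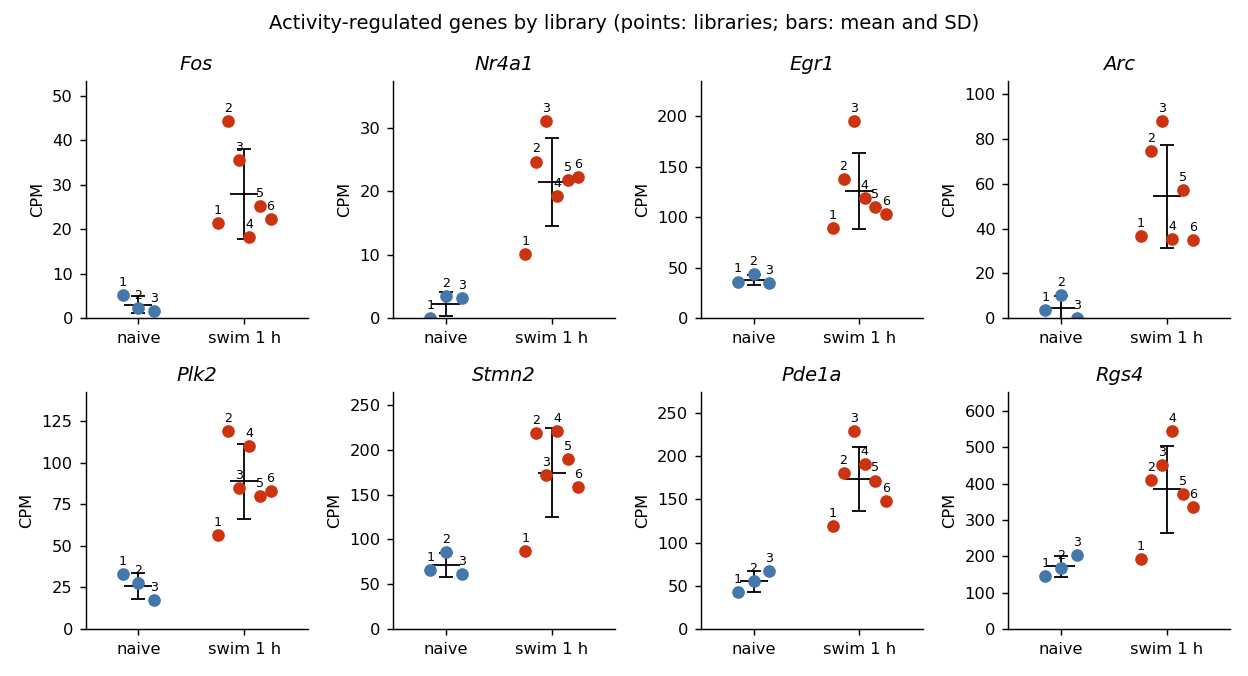
CPM (vertical axis, linear, from 0) of 8 genes in each of 3 naive and 6 swim libraries, with replicate numbers at the points and bars for the mean and SD. For Fos, Nr4a1, Egr1, Arc, Plk2, Stmn2 and Pde1a every swim library is above every naive one. For Rgs4, swim replicate 1 lies below naive replicate 3.

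Promoter sequence is shown for Fos, Nr4a1 and Plk2 because they are activity genes that held and have an entry in the promoter table used, which Egr1 does not, and because calcium and cAMP signals reach such genes through short promoter elements. Each run covers 250 bases before to 50 after the RefSeq start, 5′ to 3′ on the gene's strand, in build GRCm38.p6, and all 3 genes lie on the plus strand. Capitals mark TGACG, the core of the cAMP response element, read on either strand (CGTCA on the strand shown), and TATAAA.
Fos (chr12:85473640-85473939): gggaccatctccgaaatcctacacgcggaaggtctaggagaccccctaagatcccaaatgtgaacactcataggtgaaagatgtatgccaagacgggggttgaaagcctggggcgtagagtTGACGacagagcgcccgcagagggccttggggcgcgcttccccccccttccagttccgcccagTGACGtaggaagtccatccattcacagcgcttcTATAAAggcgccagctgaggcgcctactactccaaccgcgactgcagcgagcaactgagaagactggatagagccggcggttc
Nr4a1 (chr15:101266596-101266895): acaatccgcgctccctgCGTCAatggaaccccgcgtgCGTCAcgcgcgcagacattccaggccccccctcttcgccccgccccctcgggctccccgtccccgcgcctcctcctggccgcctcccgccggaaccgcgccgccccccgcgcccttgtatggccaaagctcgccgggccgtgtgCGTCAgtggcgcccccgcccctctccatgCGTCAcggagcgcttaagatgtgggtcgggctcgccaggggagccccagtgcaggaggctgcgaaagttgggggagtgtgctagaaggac
Plk2 (chr13:110394794-110395093): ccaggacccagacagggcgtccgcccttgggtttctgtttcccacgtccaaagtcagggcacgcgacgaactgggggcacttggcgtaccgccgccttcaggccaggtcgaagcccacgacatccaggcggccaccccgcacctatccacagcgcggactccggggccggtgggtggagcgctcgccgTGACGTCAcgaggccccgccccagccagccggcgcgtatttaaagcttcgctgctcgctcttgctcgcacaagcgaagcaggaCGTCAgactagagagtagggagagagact
The core TGACG was present at 2 places in the Fos window, the nearer one starting 66 bases before the start, and TATAAA began 33 bases before it. The Nr4a1 window held 4 cores, all on the opposite strand, the nearest beginning 40 bases before the start. The Plk2 window held the full palindrome TGACGTCA, which contains the core on both strands, beginning 62 bases before the start, and 1 further core 21 bases after it. Of 32851 promoters of this length in the table, 20.8% held TGACG, 1.79% held TGACGTCA and 13.6% held TATAAA. The CArG box, the site of SRF, had no match in these 3 windows and was found in 1.63% of all. A match describes the letters and not a bound factor.

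Delayed activity-regulated genes, many of which encode proteins that act at synapses, also moved mostly upward. Of 31 measured members 12 rose, 2 fell and 17 did not pass, with a median of 0.69, and with the pair share in the model 8 rose and 1 fell. Plk2, a kinase that weakens synapses after strong activity (chr13:110395046-110400844), had 32.8, 27.6 and 17.3 CPM in naive libraries and 56.6 to 119 CPM with a median of 83.5 in swim libraries. No swim library reached down to the naive range. The log2 fold change of Plk2 was 1.79 (SE 0.27, edgeR adjusted p = 0.000109), and it was the 1 member of this list that held, with 1.49. Rgs4, an inhibitor of Gq and Gi signalling, went from 145, 167 and 204 CPM to 193 to 544 CPM with a median of 390. The lowest swim library lay among the naive ones, and the log2 fold change was 1.16 (SE 0.24). Stmn2, a microtubule regulator of growing axons, rose by 1.29 with no overlap, and Spred1, an inhibitor of Ras, rose by 1.19 with overlap. The nuclear receptors Nr4a3 and Nr4a2 rose by 2.01 and 1.91 on the log2 scale, with 7 and 6 naive counts. Vgf, a secreted neuropeptide precursor, fell, from 114, 122 and 130 CPM to 53.0 to 113 CPM with a median of 81.8 (log2 fold change -0.60, SE 0.19). Leaving out naive replicate 2 or 3 ended the call of Vgf. Bdnf, the neurotrophin gene, stood at 0.05 with an opposite exon, and Homer1 at 0.63, neither past the threshold.

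The Ras-ERK cascade relays growth factor and calcium signals to the nucleus. Of 40 measured members 16 rose and none fell, while 24 did not pass, and the median was 0.75. With the pair share in the model 12 rose and none fell, and of the members with no gene opposite, scaled among such rows, 5 rose and 2 fell. Araf, a Raf kinase, rose from 137, 151 and 193 CPM to 354 to 585 CPM with a median of 499 (log2 fold change 1.59, SE 0.28), and held with 1.65. Its row has an exon opposite Syn1, whose own row rose by 0.89 over 175 naive and 1407 swim counts, so the value is uncertain. Rasgrf1, a calcium-activated exchange factor for Ras, rose from 24.0 ± 1.98 to 61.1 ± 16.8 CPM (SD, n = 3 and 6) with no overlap, at 1.37 (SE 0.31). Mapk3, the gene of ERK1, did not pass at 1.10. Dusp6, an ERK phosphatase, did not pass at -0.18.

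The list of CREB factors, coactivators and protein kinase A subunits held 23 measured members, of which 7 rose, 1 fell and 15 did not pass, with a median of 0.46. None of them held, and 5 rose with the pair share in the model. Prkacb, a catalytic subunit of protein kinase A, rose from 47.9 ± 12.5 to 137 ± 39.4 CPM (log2 fold change 1.51, SE 0.29) without overlap. Crebbp, the CREB coactivator, had 3 counts over the naive and 63 over the swim libraries, a ratio of 5.05 (95% exact binomial interval 1.65 to 25.1, for counting error only), and its call ended without naive replicate 1. The log2 fold change of Crebbp, 2.26, was 3.02 without naive replicate 2. Among 18 phosphodiesterase and cyclase genes 6 rose and 1 fell, with a median of 0.63, and 3 rose and 1 fell with the pair share in the model. Pde1a, a calcium and calmodulin-activated phosphodiesterase (chr2:79834453-80129458, minus strand, no gene opposite), had the smallest p of the rising genes chosen for naming. It had 43.2, 55.2 and 67.5 CPM in naive libraries and 120 to 229 CPM with a median of 176 after the swim. The groups stood well apart, and the log2 fold change was 1.65 (SE 0.23, edgeR adjusted p = 4.82e-05), with 1.39 when it held without the 3 libraries. Gucy1b1 and Gucy1a1, the subunits of the nitric oxide receptor, rose by 1.02 and 1.38, each with overlap, and Gucy1a1 lost its call without naive replicate 3.

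Few genes known to respond to glucocorticoids passed the test. Of 21 measured members 2 rose, 2 fell and 17 did not pass, with a median of 0.04, below the 0.24 of all genes. Under DESeq2's size factors the median was -0.00, and it was -0.23 over members scaled among rows with no gene opposite. Bcl6 and Errfi1 rose, by 2.09 and 1.04 on the log2 scale. Bcl6 rested on 3 naive and 56 swim counts, a ratio of 4.49 (95% exact binomial interval 1.46 to 22.4, for counting error only), and its row has an opposite exon. The log2 fold change of Bcl6 was 1.36 without naive replicate 2 and 3.09 without naive replicate 3, and its call ended without naive replicate 1, naive replicate 2 or swim replicate 2. The call of Errfi1 ended without naive replicate 1 or 2 or without swim replicate 2, 3 or 6. Nr1d1 and Map3k6 fell by 0.99 and 1.07. Map3k6 lost its call without naive replicate 1 or 3. Nr1d1, the clock repressor, has exons opposite Thra, and the 2 rows held 18246 and 4470 naive counts. The common hormone-response markers Fkbp5, Tsc22d3, Sgk1 and Per1 stood at 0.04, 0.25, 0.98 and 0.77, and none passed. Fkbp5, which restrains the receptor, had 47 naive and 197 swim counts. No member of this list held, nor did any when scaled among rows with no gene opposite rise.

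In contrast, of 7 measured corticosteroid receptors and their chaperones 5 rose, none fell and 2 did not pass, with a median of 0.73. Fkbp4, a cochaperone that aids nuclear entry of the receptor, had 19, 24.2 and 15.7 CPM in naive libraries and 35.5 to 57.8 CPM with a median of 45.5 in swim libraries. There was no overlap, and the log2 fold change was 1.23 (SE 0.27). Hsp90aa1, the main chaperone of the receptor, rose by 0.96, Stip1 by 0.88 and Ptges3 by 0.73, all without overlap between groups. Stip1 lost its call without naive replicate 3, and Ptges3 without naive replicate 2. The receptor gene Nr3c1 itself also rose. Scaled among rows with no gene opposite, 1 of these rose and 1 member fell, and none held. Heat shock chaperones gave 8 rises and 1 fall among 22 measured members, with a median of 0.48. Hspa4 rose from 95.1, 133 and 75.3 CPM to 161 to 241 CPM with a median of 213 (log2 fold change 1.01, SE 0.21) and Hspa8 from 411 ± 87.7 to 854 ± 226 CPM (1.05, SE 0.25), neither with overlap. Hspe1 fell by 1.15, on a row opposite Hspd1, its partner chaperonin, which rose.

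Endoplasmic reticulum stress genes gave 4 rises and 2 falls among 20, with a median of 0.54, counts near the shares of all genes. Asns, the asparagine synthetase gene, rose by 1.52 (SE 0.40). Dnajb9 and Ppp1r15a had no naive count and were at least 2.64-fold and 2.08-fold higher against a floor of 3 counts over the naive group. Both have an opposite exon, and Ppp1r15a lost its call without naive replicate 2. Among cold-inducible RNA-binding genes, listed because the water was below body temperature, 1 of 5 rose. That was Rtn3, at 0.65, a row with an opposite exon whose call ended without naive replicate 1 or 3. Cirbp itself did not pass, at 26.4 ± 7.85 CPM in naive and 39.0 ± 10.7 CPM in swim libraries. Clock genes gave 7 rises and 1 fall among 21, with a median of 0.94. With the pair share in the model 2 rose and 1 fell, with a median of 0.52, and 1 rose among members scaled with rows that have no gene opposite. Bhlhe40 rose by 1.35 and Hlf by 1.14, the first with an opposite exon and a call that ended without naive replicate 2. No member of these 3 lists held.

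**Figure D3:**
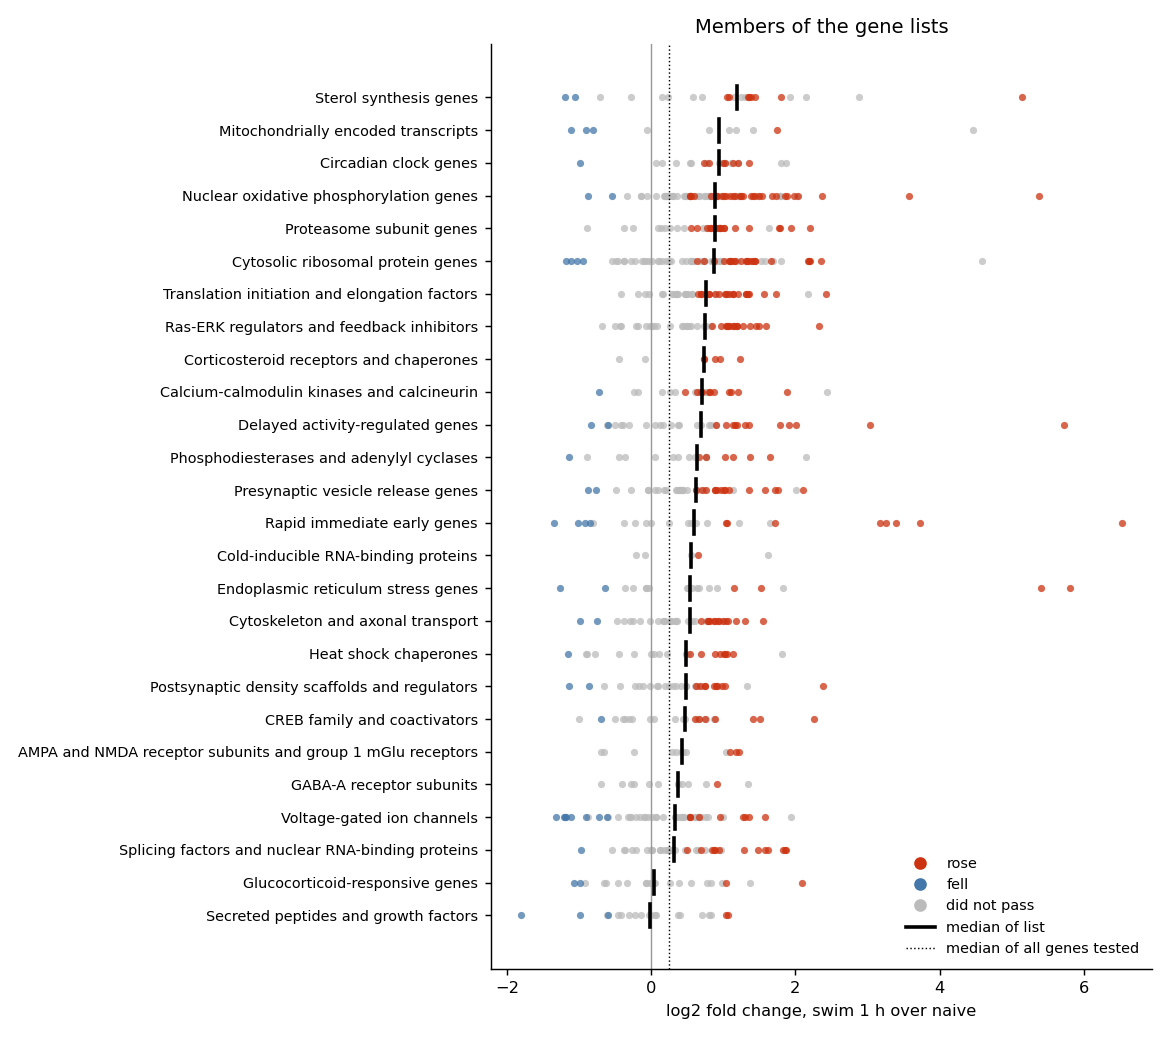
Log2 fold change of swim over naive (horizontal axis) of every measured member of 26 gene lists, coloured by whether it rose, fell or did not pass at an adjusted p under 0.05, with the median of each list and, dotted, the median of all genes tested at 0.24. Medians run from -0.02 for secreted peptides to 1.19 for sterol synthesis; points far to the right, such as Egr2, are fitted values of genes with no or few naive counts and are not bounds.

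Some synaptic genes rose, but no receptor subunit, postsynaptic density gene or member of the calcium kinase and calcineurin list held. The medians of the receptor lists lay near the 0.39 of protein-coding rows. Of 12 measured AMPA, NMDA and group 1 metabotropic receptor genes 3 rose and none fell, with a median of 0.43, which was -0.05 over members scaled among rows with no gene opposite. Gria2, the subunit that blocks calcium entry through AMPA receptors, had 32.8, 28.8 and 34.5 CPM in naive libraries and 50.3 to 82.9 CPM with a median of 68.2 after the swim. All swim libraries were above the naive ones, at a log2 fold change of 1.10 (SE 0.25). Grin1 and Grm5 rose by 1.21 and 1.17, and both calls ended without naive replicate 1 or naive replicate 3. Grin1 has exons opposite Grin1os, a row that fell and held 7369 naive and 16649 swim counts against 15 and 148 for Grin1. The call of Grm5 also ended without swim replicate 2, and its log2 fold change was 1.83 without naive replicate 2. Of 13 GABA-A receptor genes 1 rose and none fell, with a median of 0.37, and none passed with the pair share in the model. Postsynaptic density genes gave 10 rises and 2 falls among 33, with a median of 0.48. Dlg1, a scaffold of the PSD-95 family, rose from 52.5 ± 3.54 to 96.9 ± 19.7 CPM and Kalrn, an exchange factor that shapes spines, from 120 ± 14.8 to 218 ± 34.3 CPM. With the pair share in the model the postsynaptic density list had 7 rises and 6 falls. Its median was then 0.07, below the 0.14 of all genes tested in that fit. Nlgn1, a synaptic adhesion gene, fell by 1.15 on a row with an opposite exon. Shank3, a scaffold of the same density and intact in these mice, did not differ beyond its spread. It had 6.92, 11.5 and 9.42 CPM in naive libraries and 5.73 to 11.3 CPM in swim libraries, on 20 naive and 79 swim counts. The Shank3 row has an exon opposite Gm15609, whose row fell and held 229 and 516 counts, so the value is uncertain.

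Calcium-dependent kinases and the phosphatase calcineurin gave 11 rises and 1 fall among 22 measured members, with a median of 0.70, and 8 rises and 2 falls with the pair share in the model. Ppp3r1, the regulatory subunit of calcineurin, had 60.5, 73.6 and 59.6 CPM in naive libraries against 102 to 397 CPM with a median of 223. Its 3 highest swim values came from replicates 2, 3 and 4, and the log2 fold change was 1.88 (SE 0.36) with them and 0.97 without. Ppp3ca, the catalytic subunit, rose by 0.87, and Camkk2, a kinase that activates other calmodulin kinases, by 1.2. Presynaptic release genes gave 15 rises and 2 falls among 39, with a median of 0.62. Of the members with no gene opposite, scaled among such rows, 4 rose and 1 fell. Syn2, a synaptic vesicle protein, rose from 62.6 ± 1.97 to 186 ± 62.0 CPM (log2 fold change 1.58, SE 0.28) and was the member that held. Its row has an exon opposite Timp4, whose row held 2478 naive and 20686 swim counts against 131 and 1788 for Syn2. Napb and Snap91, which act in vesicle fusion and coated vesicle formation, rose by 1.76 and 1.72, and the lowest swim library of Napb lay among the naive ones.

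Voltage-gated ion channels went both ways, with 8 rises and 8 falls among 49 measured members, counts near the shares of all genes. The median was 0.34, and with the pair share in the model 4 rose and 6 fell. The falls included Kcns2, a modifier of Kv2 channels, with 86.4, 92.0 and 92.6 CPM in naive libraries and 28.7 to 53.5 CPM with a median of 39.9 in swim libraries. The groups did not overlap, and the log2 fold change was -1.18 (SE 0.23). Kcna1, a Kv1 channel of axons, fell from 38.2 ± 10.6 to 17.7 ± 5.02 CPM at -1.11 (SE 0.22), with no overlap and no gene opposite. Kcna6 fell by 1.32 on a row with an opposite exon. No channel gene held. Secreted peptides and growth factors gave 2 rises and 3 falls among 20, with a median of -0.02, which was 0.01 under upper quartile scaling. Vegfa, the vascular growth factor, fell from 26.5 ± 6.77 to 13.9 ± 2.75 CPM at -0.99 (SE 0.28), and its call ended without naive replicate 2. Nrg1 fell by 1.81 and Nrn1 rose by 1.04, both on rows with an opposite exon, and the call of Nrn1 ended without naive replicate 1 or 3.

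Many genes of protein synthesis, protein breakdown and energy supply rose, and few fell, but these counts depended on the scaling and on swim replicates 2, 3 and 4. Of 45 initiation and elongation factors 20 rose and none fell, with a median of 0.76. Of the members with no gene opposite 17 rose, and 5 rose and 1 fell when scaled among such rows; no factor held. Eef1a1, which brings transfer RNA to the ribosome, had 91.6, 107 and 92.6 CPM in naive libraries and 143 to 485 CPM with a median of 292. There was no overlap, and the log2 fold change was 1.73 (SE 0.33). Eif2s2, a subunit of the initiation factor eIF2, rose by 2.43 and Pabpc1, the poly(A)-binding protein, by 1.14. Of 74 cytosolic ribosomal protein genes 22 rose, 4 fell and 48 did not pass, with a median of 0.87, and 12 rose and 4 fell with the pair share in the model. Rps3a1 rose from 9.39 ± 2.75 to 42.7 ± 13.6 CPM (log2 fold change 2.19, SE 0.41) and held, as did Rps14, at 1.44. Rpl18 fell by 1.12 on a row opposite an exon of Sphk2. These rows can share reads with processed pseudogenes and are uncertain on that account.

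Nuclear genes of oxidative phosphorylation gave 31 rises and 2 falls among 75, with a median of 0.89. The 19 rises among members with no gene opposite became 7 when scaled among such rows. Cox6c, a subunit of cytochrome oxidase, had 17.3, 9.20 and 26.7 CPM in naive and 32.7 to 78.7 CPM in swim libraries, with a median of 64.7. The groups did not overlap, and Cox6c was the 1 member that held, with an exon opposite Vps13b. Atp5h rose by 1.16. Cox4i1 rose by 1.85 on 43 naive and 703 swim counts, with exons opposite Emc8, whose row fell and held 13427 and 23087 counts. Mitochondrially encoded transcripts went otherwise, with 1 rise and 3 falls among 10, although their median was 0.94. With the 2 members at 0 in all naive libraries set to their floor-based bounds the median was 0.43, and by limma it was -0.02. mt-Nd2 fell from 30.5 ± 7.69 to 13.6 ± 6.89 CPM and held, at -1.12 with all and -2.02 without the 3 libraries. Without swim replicates 1, 5 and 6 instead it stood at -0.70 with an edgeR adjusted p of 0.0896, and its call also ended without naive replicate 2. mt-Nd6 fell by 0.90 and mt-Co1 rose by 1.75, both with an opposite exon. Of 35 proteasome subunit genes 18 rose and none fell, with a median of 0.88. With the pair share in the model 8 rose and 1 fell, the 10 rises among members with no gene opposite became 1 rise and 1 fall when scaled among such rows, and no proteasome gene held. Psma3 rose by 1.79 and Psmd14 by 1.17.

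The median of sterol synthesis genes was the highest of the lists, at 1.19, and 1.11 with the member at 0 in all naive libraries set to its bound. Of 22 members 8 rose and 2 fell. Fdft1, squalene synthase, rose from 24.6 ± 7.36 to 82.5 ± 26.2 CPM at 1.79 (SE 0.30) and held, with an exon opposite Ctsb. Hmgcs1, an early step of the pathway, rose by 1.05, and Tm7sf2, a late one, fell by 1.19. The row of Hmgcs1 has an exon opposite Gm48342, which rose by 1.01 and held 1362 naive and 12086 swim counts against 99 and 929. The call of Tm7sf2 ended without naive replicate 1 or 2 or without swim replicate 4. Scaled among rows with no gene opposite, none rose and 2 fell. Splicing factors and nuclear RNA-binding proteins gave 13 rises and 1 fall among 38, with a median of 0.31, and 3 rises and 2 falls among members scaled with rows that have no gene opposite. Sf3b1, a core subunit of the U2 particle, had 27.7, 33.4 and 25.1 CPM in naive libraries and 51.6 to 83.4 CPM with a median of 69.9. There was no overlap, and it held, at 1.28 (SE 0.23). Ptbp2, the neuronal polypyrimidine tract binding protein, rose by 1.83, or 2.45 without naive replicate 3, and also held. Cytoskeletal and transport genes gave 14 rises and 2 falls among 38, with a median of 0.54, of which none held, and 5 rises and 2 falls among members scaled with rows that have no gene opposite. Kif5b, a kinesin motor, rose by 1.54, and Dpysl2, a regulator of axon growth, by 1.17. Kif5b has exons opposite Gm17036, whose row rose, and AC113003.1, whose row fell.

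The 12 rising protein-coding genes of smallest p, chosen among those at a mean log2 CPM from 1 up, all held, and 8 of them have an opposite exon. Prpf39, a splicing factor, had 112, 125 and 119 CPM in naive libraries and 325 to 828 CPM with a median of 734 in swim libraries. The groups were far apart, and Prpf39 rose by 2.51 on the log2 scale (SE 0.36, adjusted p = 4.82e-05 in edgeR). Its row has an exon opposite Fkbp3, whose row rose by 1.08 and held 1119 swim counts against 6178 for Prpf39. Siae, a sialic acid esterase, went from 24.2, 19.6 and 23.5 CPM to 83.1 to 516 CPM with a median of 295. This was the highest fold of the 12, at a log2 fold change of 3.78 (SE 0.56), and both rows opposite it, Spa17 and Tbrg1, did not pass. Pdf, a mitochondrial deformylase, rose by 2.57, Sla2 by 2.21 and Cfl2, a cofilin that cuts actin filaments, by 2.23, each without overlap. The row of Cfl2, on 10 naive and 205 swim counts, has an exon opposite 1700081N11Rik. That opposite row fell and held 725 and 1156 counts, so the value of Cfl2 is uncertain. Naive replicate 3 stood above the other naive libraries for Pdf, with 119 against 48.4 and 31.1 CPM, and for Sla2, with 94.2 against 31.1 and 33.4 CPM. Without that library the log2 fold changes were 3.31 for Pdf and 2.91 for Sla2.

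Falls of large size were fewer. Fam20c, a kinase of secreted proteins with no gene opposite, had 31.1, 24.2 and 22.0 CPM in naive libraries and 5.03 to 16 CPM with a median of 5.65 in swim libraries. All swim libraries lay below all naive ones, and the log2 fold change was -1.90 (SE 0.32), with the fall holding at -1.54. Tmem121b fell from 76.4 ± 13.1 to 32.1 ± 4.55 CPM at -1.25 (SE 0.22), and Chst12, a chondroitin sulfotransferase, from 14.5 ± 4.34 to 3.41 ± 1.21 CPM at -2.13 (SE 0.40). Dennd6b fell by 2.08, and these 3 also held. Gucy2e, a membrane guanylyl cyclase, fell from 46.9 ± 8.27 to 12.9 ± 5.36 CPM at -1.92 (SE 0.43) and did not hold. Zfpm1 and Atf6b fell by 2.09 and 1.91 on few counts, and both calls ended without naive replicate 2. Of falling rows with an opposite exon, Mettl25 went from 23.2 ± 4.13 to 3.99 ± 1.43 CPM at -2.52 (SE 0.39) and held. Tubgcp2, a part of the gamma-tubulin ring, went from 169 ± 2.76 to 63.2 ± 19 CPM and held at -1.18.

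By fitted size, the 6 largest rises among protein-coding rows with no gene opposite and a mean log2 CPM from 1 up were of genes with no naive count, Egr2 among them. Mbnl1, a splicing regulator, had 48 swim counts and was at least 3.85-fold higher, against a floor of 3 counts over the naive group. Atp13a3 and Vrk1 were at least 2.89-fold and 2.81-fold higher on the same floor. For Sertad1 and Zkscan6 the bounds were 2.64-fold and 2.48-fold, and Sertad1, at 0 in 2 of the 6 swim libraries, lost its call when any naive library or swim replicate 2 was left out. Zkscan6 lost it without naive replicate 2.

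The response of Shank3(ΔC/+) mice at 1 h, from 5 swim and 3 naive libraries that the WT comparison does not share, gave 566 rises (4.99%) and 822 falls (7.25%). Of the 1917 genes that rose in WT mice, 424 rose there too, which is 74.9% of the Shank3 rises. Of the 1962 that fell, 737 fell there, which is 89.7% of the Shank3 falls. The sign was shared by 95.5% of the WT rises and 99.0% of the WT falls. The share of all genes tested with the same sign was not worked out, so these figures have no baseline. Pair share also differed between those groups, at 10.5% to 11.6% in naive and 12.2% to 16.4% in swim libraries, and its part in this likeness was not tested. Fos and Nr4a1 stood at 3.16 and 3.06 in Shank3 mice, beside 3.26 and 3.17 in WT mice. Egr1 and Plk2 stood at 1.10 and 1.03, Arc at 2.29, and Pde1a at 1.02, all past the threshold there. The test of the difference itself called no gene (0%) by edgeR, with 468 at an unadjusted p under 0.05 (4.13% of genes). DESeq2 and limma also called 0, with 345 and 411 genes at an unadjusted p under 0.05. The smallest adjusted p was that of Ppm1d, a phosphatase that acts on p53 pathway kinases. It had 0, 1.15 and 0 CPM in WT naive libraries and 8.02 to 10.4 CPM in WT swim libraries, 1 against 79 counts, a ratio of 19 (95% exact binomial interval 3.31 to 760, for counting error only). In Shank3 mice its log2 fold change was -0.04, and the difference had an edgeR adjusted p of 0.221. Acat2, Atp6v0b, Mindy3 and Ncam2, the next by p, differed by -2.30, -1.33, -3.31 and -3.48, with an adjusted p of 0.392 for the first pair, and none passed. Of these, Mindy3 and Ncam2 rested on 2 and 1 naive counts, the WT rise of Mindy3, 2.92, was 2.2 without naive replicate 2, and the calls of Acat2 and Atp6v0b in WT mice ended without naive replicate 2 and naive replicate 1.

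At 4 h WT mice had 3294 rises (29%) and 3056 falls (26.9%) against naive mice of another cohort, so time and cohort cannot be told apart. Of the WT rises at 1 h, 1194 also rose at 4 h, and 15 fell. Of the falls, 1730 also fell at 4 h, and 5 rose. Pair share at 4 h ran from 16.6% to 31.0% against 11.4% to 14.5% in its naive mice. The test of the difference between the times called 37 genes (0.326%). Fos stood at 2.02 and Nr4a1 at 2.43 at 4 h, below their values at 1 h, and Arc at 1.69 against 3.39, differences that did not pass. Egr1 and Plk2 were at 1.68 and 1.56, beside 1.71 and 1.79 at 1 h. Rises at 1 h that did differ from 4 h were those of Prpf39, 0.29 at 4 h, Cfl2, 0.19, Sla2, 0.06, and Araf, which fell at 4 h with -0.65. Ptges3, the receptor chaperone gene, also fell at 4 h, with -0.85 against 0.73 at 1 h. Fam216a was at -0.65 against 1.26, and Ppm1d at -0.13. The row of Fam216a has exons opposite Vps29 and Gpn3. Gpn3 fell at 1 h and held 3102 naive and 4980 swim counts, against 131 and 1308 for Fam216a. The 1 h rise of Fam216a was 2.02 without naive replicate 3, and that of Ppm1d, 4.07 with all libraries, was 7.07 without naive replicate 2, the 1 naive library with a count.

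**Figure D4:**
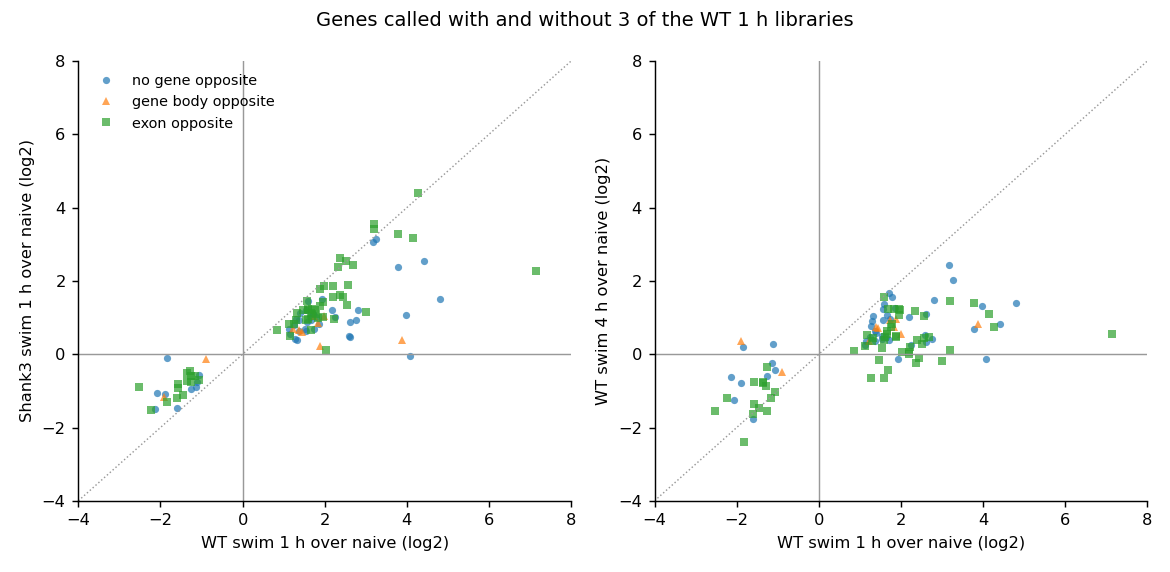
Log2 fold change at 1 h in WT mice (horizontal axis) of the 112 genes called with and without swim replicates 2, 3 and 4, against that of Shank3 mice at 1 h (left) and of WT mice at 4 h (right), with symbols for the class of row and a dotted line of equal values. On the left 86 of 87 rising and all 25 falling genes have the same sign, without a share over all genes to set beside these. Of them, 68 and 13 passed in Shank3 mice.

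Of the 87 rises that held, 71 were protein-coding rows, 36 had no gene opposite and 43 an opposite exon. Their median log2 fold change was 1.83 over all 6 swim libraries. Among the 25 falls that held, 22 were protein-coding and 9 had no gene opposite, with a median of -1.45. Fos, Egr1, Nr4a1, Plk2, Pde1a, Sf3b1, Rps3a1 and Ppm1d are the rising genes named here that held and have no gene on the opposite strand. On the falling side these were Fam20c, Tmem121b, Chst12, Dennd6b and mt-Nd2, of which mt-Nd2 did not pass without swim replicates 1, 5 and 6.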

How the data were processed

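Ribosome-bound RNA was sequenced in 36 libraries with a stranded mRNA kit and paired 100 bp reads, per the labels' protocols. The authors deposited raw counts per gene for each library, 55470 rows each. The submitters' processing notes name Trimmomatic 0.39, FastQC, HISAT2 2.2.0, StringTie 2.1.3, Salmon 1.4, DESeq2 and mm10; the roles and the strand setting are not given in the sources used here. Positions and opposite-strand genes came from GENCODE vM21, matched for 55229 rows. Counts were fitted with edgeR 4.0.16 (R 4.3.3; TMM, filterByExpr, robust quasi-likelihood) over all 36 libraries in 8 cells, with Benjamini-Hochberg adjustment over 11341 genes and a threshold of 0.05. The standard error is the log2 fold change divided by the root of F. The fit was tested on simulated data of this comparison with 10846 genes: it called 4 of 61 genes changed 1.5-fold, 19 of 65 changed 2-fold and 61 of 64 changed 4-fold, with 5 unchanged genes called. Apart from the changed genes, all simulated libraries shared 1 profile with independent noise. They held no library-wide shift such as that of the pair share, so false calls under such a shift were not tested.

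Named genes were the 12 rising and 12 falling protein-coding genes of smallest p, the 6 of largest change each way with no gene opposite, the 4 of smallest p per list, the 5 of smallest p for each difference, and Shank3. Provisional names were left out of the first 2 of these. Members of the 26 lists outside that rule are given as examples chosen after their values were seen. The comparison and the lists were chosen with earlier results of these data known. Alternatives used DESeq2 1.42.0, limma 3.58.1, other scalings, filters and sets of libraries. Exact permutation tests used scipy 1.17.1. Intervals and floors cover counting error only. Promoters came from RefSeq. Some genes of the lists are counted but not reported here by name.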

Additional observations from a re-analysis of the deposited data

Results flagged for a closer look

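Among the 6 swim libraries, 1 library stood apart from the other 5 for 10 of the 137 genes named, by the gap to its neighbour relative to the range. Chance gives such a gap in about 1 of 20 groups, so a count of this order has little weight. Swim replicate 1, which had the lowest pair share, was the lowest for Prpf39 at 325 CPM (next 664) and for Dpysl2 at 15.1 CPM (next 35.4). It was the highest for Lacc1 at 6.29 CPM (next 3.44), Hspe1 at 132 CPM (next 69.4), Atf5 at 198 CPM (next 106), Celf4 at 524 CPM (next 309) and Ncam2 at 12.6 CPM (next 8.15). Swim replicate 5 was the highest for Fam20c at 16 CPM (next 6.25) and Fam216a at 204 CPM (next 154), and the lowest for Gabra4 at 12.6 CPM (next 20.1). Ribosomal RNA made up 10.6% of the counts of replicate 5. The part of these library measures in the gaps was not tested.

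For 8 named genes the WT response at 4 h differed from that at 1 h by edgeR's test of the difference. On the log2 scale the difference was -2.22 for Prpf39, -2.04 for Cfl2, -2.15 for Sla2, -2.24 for Araf, -1.58 for Ptges3, -4.20 for Ppm1d, -3.19 for Gm49190 and -1.91 for Fam216a. Time and cohort cannot be told apart here. Gm49190, a row with an opposite exon, had 0, 3.45 and 29.8 CPM in naive libraries, and its 1 h rise of 3.00 was 5.35 without naive replicate 3. Ncam2, with 1 naive count, rose by 3.87 by 6.89 without naive replicate 1 and by 3.18 without naive replicate 2.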

How the results depend on the processing

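The 1917 rises at 1 h became 365 among rows with no gene opposite scaled among themselves and 87 without swim replicates 2, 3 and 4, a setting chosen after seeing the data. The 1962 falls became 432 and 25 there, and 1053 with the pair share as a covariate. Leaving out 1 library gave 1089 to 2281 rises and 1236 to 2331 falls. Rises moved by over 1.5 times without naive replicate 1 (1237), naive replicate 3 (1089) or swim replicate 2 (1267), and falls without naive replicate 2 (1246) or 3 (1236). The 1388 Shank3 calls at 1 h were 2118 with cohort 1 alone, 2905 with an additive cohort term and 179 among rows with no gene opposite. The 6350 calls at 4 h were 867 with the pair share and 1805 among those rows. The 37 calls of the difference between times were 99 by DESeq2, 122 with no filter, 276 with the additive term, 205 with the pair share, 7 among rows with no gene opposite and 62 without swim replicates 2, 3 and 4. The cause was not tested. No called gene named changed sign under any setting run, but the medians of 6 lists did under at least 1: glucocorticoid-responsive genes (to -0.23), AMPA and NMDA receptors (-0.05) and cold-inducible genes (-0.19) among rows with no gene opposite, GABA-A receptors without swim replicates 2, 3 and 4 (-0.00), secreted peptides (up to 0.10, with 9 libraries only) and mitochondrially encoded transcripts (-0.02 by limma).

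With the replicate number as a block, 1715 genes rose and 1958 fell, and the difference between times called 7. Same-numbered naive and swim libraries correlated from -0.01 to 0.15, so the numbers were not taken as pairs. The median of all genes, 0.24, was 0.07 without swim replicates 2, 3 and 4. Common biological variation was 24.2%, and 13.3% with the pair share.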
